A study of Mus musculus with 6 samples.

Results

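A list of 10 transcription factors that direct the choice of blood cell lineage was followed in Ba/F3 cells, an interleukin 3-dependent mouse pro-B cell line, with and without the fusion kinase NCOR1-LYN. They are Gata1, Gata2, Spi1, Cebpa, Cebpe, Runx1, Myb, Gfi1, Gfi1b and Tal1, taken as a list of gene names together with every probe set annotated to them. Of these 10 genes, 9 had a probe set with exactly 1 gene symbol, 17 probe sets in all, out of 45101 probe sets and 18193 genes on the Affymetrix array. No probe set was matched to Cebpe, which is not analysed here. The NCOR1-LYN group held 3 arrays of cells given doxycycline, and the control group held 3 arrays of uninduced cells without the drug. All 6 samples came from Ba/F3 cells transduced with a retroviral Tet-on system in which doxycycline switches NCOR1-LYN on. The drug and the fusion protein therefore cannot be told apart in these comparisons. Neither a cell clone nor the independence of the triplicates is stated in the labels, so p-values measure only the spread between these arrays.

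These factors bind DNA and set which lineage genes a blood progenitor can express. GATA2 acts early, in stem and progenitor cells and in mast cells, and GATA1 takes over many GATA sites in erythroid, megakaryocytic, mast and eosinophil cells, where it represses Gata2. TAL1 binds E-boxes within a complex with GATA factors, LMO2 and LDB1, and GFI1 and GFI1B are zinc finger repressors. SPI1, better known as PU.1, and the C/EBP proteins drive myeloid fates, while RUNX1 and MYB act broadly in progenitors.

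Sequences are shown for Gata1, Gata2, Gfi1b and Tal1, the genes whose representative probe set had the same sign in all 3 same-numbered pairs of arrays. They are the 250 bases upstream of each RefSeq start in the GRCm38.p6 build, which belongs to the sequence table and not to the arrays, and 8 of the 10 genes had an entry there. Capitals mark the letters GATA on either strand, the core that GATA factors bind.
Gata1 upstream of start, chrX:7967911-7968160, minus strand: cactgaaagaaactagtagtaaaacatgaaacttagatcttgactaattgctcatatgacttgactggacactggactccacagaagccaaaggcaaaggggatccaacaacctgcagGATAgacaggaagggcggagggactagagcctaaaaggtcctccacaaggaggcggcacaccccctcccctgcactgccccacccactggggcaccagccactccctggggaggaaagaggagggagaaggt
Gata2 upstream of start, chr6:88193641-88193890, plus strand: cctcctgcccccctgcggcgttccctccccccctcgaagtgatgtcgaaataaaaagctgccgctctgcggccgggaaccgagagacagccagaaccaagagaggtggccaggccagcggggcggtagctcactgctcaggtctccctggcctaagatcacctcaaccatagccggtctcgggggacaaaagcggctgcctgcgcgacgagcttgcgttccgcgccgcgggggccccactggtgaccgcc
Gata2 upstream of start, chr6:88198414-88198663, plus strand: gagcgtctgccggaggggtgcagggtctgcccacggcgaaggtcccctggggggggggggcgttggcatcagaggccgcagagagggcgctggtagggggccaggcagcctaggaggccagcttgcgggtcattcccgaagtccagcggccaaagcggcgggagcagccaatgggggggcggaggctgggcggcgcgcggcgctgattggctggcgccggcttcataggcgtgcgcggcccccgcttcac
Gfi1b upstream of start, chr2:28621983-28622232, minus strand: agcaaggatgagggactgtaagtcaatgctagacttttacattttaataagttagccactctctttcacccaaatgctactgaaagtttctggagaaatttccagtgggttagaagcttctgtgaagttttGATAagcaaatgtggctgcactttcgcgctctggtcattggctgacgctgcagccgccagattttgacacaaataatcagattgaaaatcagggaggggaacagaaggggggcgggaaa
Tal1 upstream of start, chr4:115056176-115056425, plus strand: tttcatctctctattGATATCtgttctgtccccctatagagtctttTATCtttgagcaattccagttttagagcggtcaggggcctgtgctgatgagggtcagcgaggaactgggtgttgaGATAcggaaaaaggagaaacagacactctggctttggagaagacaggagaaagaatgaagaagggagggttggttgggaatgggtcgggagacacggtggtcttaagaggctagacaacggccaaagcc
Tal1 upstream of start, chr4:115057561-115057810, plus strand: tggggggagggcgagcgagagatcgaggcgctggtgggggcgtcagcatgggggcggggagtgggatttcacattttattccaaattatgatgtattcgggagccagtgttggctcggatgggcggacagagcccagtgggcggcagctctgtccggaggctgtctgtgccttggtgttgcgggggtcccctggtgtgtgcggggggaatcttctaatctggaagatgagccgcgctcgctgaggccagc
The GATA letters occurred in the window of Gata1 (1 match), Gfi1b (1 match) and the first of the Tal1 starts (4 matches), and in neither window of Gata2. Across all 32851 promoter windows of this length, 53.6% held them. The longer letters GATAA, which contain GATA, were matched 1 time each in the Gfi1b window and the first Tal1 window, against 22.6% of all windows with a match. The letters AATC, the core bound by GFI1 proteins, were matched 4 times in the Gfi1b window, 3 times in the second Tal1 window and 1 time in the second Gata2 window (69% of all windows had a match). The E-box CANNTG was matched 2 times in the Gfi1b window and 1 time in the Gata1 window (66.2% of all windows). The printed windows not named for a motif held no match to it. Both strands were searched, and matches of different motifs may share bases. A match is a run of letters and not a measured site.

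Of the 9 genes with a probe set, 7 passed the filter on dim genes, a mean signal of about 47, and entered the fit of all 10916 genes. In limma 0 of the 7 had an adjusted p under 0.05 for NCOR1-LYN against control, where 0.0824% of all genes did. With the replicate number as a block the count was again 0, against 0.824% of all genes. At an unadjusted p under 0.05 the counts were 2 of 7 without the block (4.75% of all genes) and 4 of 7 with it (11.3% of all genes). Over every probe set with 1 symbol, 0 of the 17 passed in either fit, where 0.00286% passed without and 0.0429% with the block. The 7 genes had a median log2 fold change of −0.02, 3 positive and 4 negative, and all genes tested had a median of −0.01. Their median absolute log2 fold change was 0.35, against 0.12 over all genes tested. The 2 sets differ in brightness: the 7 genes had mean signals of 1026 (Runx1) to 10717 (Myb). The genes tested reach down to about 47, where adding 64 to the signal shrinks a log2 change. All log2 values are of the signal plus 64, and signals are on the linear MAS5 scale with each array set to the same trimmed mean. The 2 arrays of replicate number 1 varied together, so values of each pair and of the blocked fit are given. Numbers 2 and 3 were not told apart: across genes NCOR1-LYN replicate 2 correlated at 0.409 with control replicate 2 and at 0.485 with control replicate 3.

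**Figure D1:**
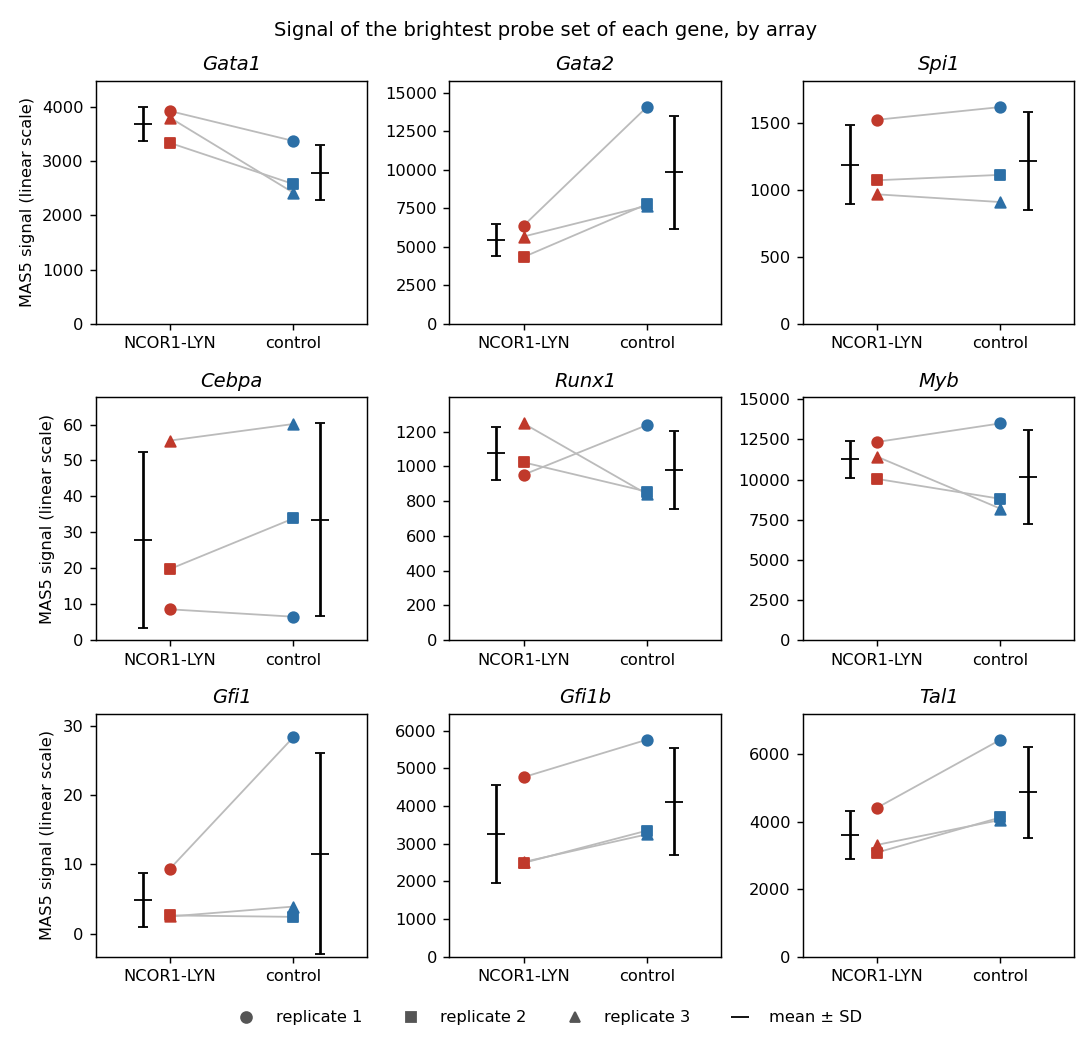
MAS5 signal (vertical axis, linear scale) of the brightest probe set of the 9 measured genes, with NCOR1-LYN arrays on the left and control arrays on the right of each panel. Symbols are arrays, grey lines join arrays of the same replicate number, and black bars give the mean ± SD of 3 arrays. The 3 Gata2 signals with NCOR1-LYN lie between 4339 and 6373, all below the 3 control signals.

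Among the GATA factors, Gata2 stood lower and Gata1 higher in all 3 pairs, neither past the threshold. Gata2 had signals of 6373, 4339 and 5671 in NCOR1-LYN replicates 1, 2 and 3, against 14085, 7775 and 7669 in control replicates 1, 2 and 3. The groups did not overlap, and control replicate 1 lay far above the other controls. The means were 5461 ± 1033 with NCOR1-LYN and 9843 ± 3674 in controls (SD, n = 3 each), a ratio of 0.555. The log2 fold change was −0.80 ± 0.26 (SE), with an adjusted p of 0.773 in limma, or 0.0667 with the block (SE 0.14). The changes within pairs 1, 2 and 3 were −1.14, −0.83 and −0.43. A second, dimmer Gata2 probe set had signals of 4126, 2855 and 3356 with NCOR1-LYN, against 7153, 4051 and 3977 in controls. It was also lower in every pair, with log2 changes of −0.78, −0.50 and −0.24, but its groups overlapped. Gata2 was the 1 gene of the 7 whose groups were apart with NCOR1-LYN lower (6.06% of all genes were), and 0 of 7 were apart with NCOR1-LYN higher (5.18% of all genes).

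Gata1 had signals of 3925, 3337 and 3802 in NCOR1-LYN replicates 1, 2 and 3, against 3373, 2579 and 2419 in control replicates 1, 2 and 3. Only control replicate 1 reached into the range of the NCOR1-LYN arrays, just above NCOR1-LYN replicate 2. The means were 3688 ± 310 with NCOR1-LYN and 2790 ± 511 in controls (SD, n = 3 each), a ratio of 1.32. The log2 fold change was 0.41 ± 0.16 (SE), with a limma adjusted p of 0.956, or 0.207 with the block. Changes within pairs 1, 2 and 3 were 0.21, 0.36 and 0.64. Gata1 had a single probe set, so no second reading of it was at hand. Of the 7 genes, 1 was higher in every pair (Gata1), against 15.9% of all genes, and 3 were lower in every pair (Gata2, Gfi1b and Tal1), against 18.9%.

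Tal1, the basic helix-loop-helix partner of GATA factors, had signals of 4409, 3082 and 3310 in NCOR1-LYN replicates 1, 2 and 3. In control replicates 1, 2 and 3 it had 6426, 4122 and 4048. Each NCOR1-LYN array lay below the control of its number, and the groups overlapped through NCOR1-LYN replicate 1. The log2 fold change was −0.41 ± 0.22 (SE) with an adjusted p of 0.999 in limma, or 0.14 with the block, and pairwise changes of −0.54, −0.41 and −0.29. Gfi1b, a repressor needed for erythroid and megakaryocytic development, had signals of 4764, 2486 and 2510 with NCOR1-LYN, against 5759, 3344 and 3245 in controls. Replicate 1 was the highest array of both groups, and each NCOR1-LYN array again lay below the control of its number. Its log2 fold change was −0.35 ± 0.31 (SE), with an adjusted p of 0.999 in limma and 0.181 with the block, where the SE was 0.09. The pairwise changes of −0.27, −0.42 and −0.36 differed by less than its spread between replicates. Gfi1, the paralogue of Gfi1b that acts in granulocytes and lymphocytes, was near the floor of the array. Its signals were 9.35, 2.62 and 2.47 with NCOR1-LYN and 28.3, 2.41 and 3.89 in controls, under the filter, and no fold is read from them.

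**Figure D2:**
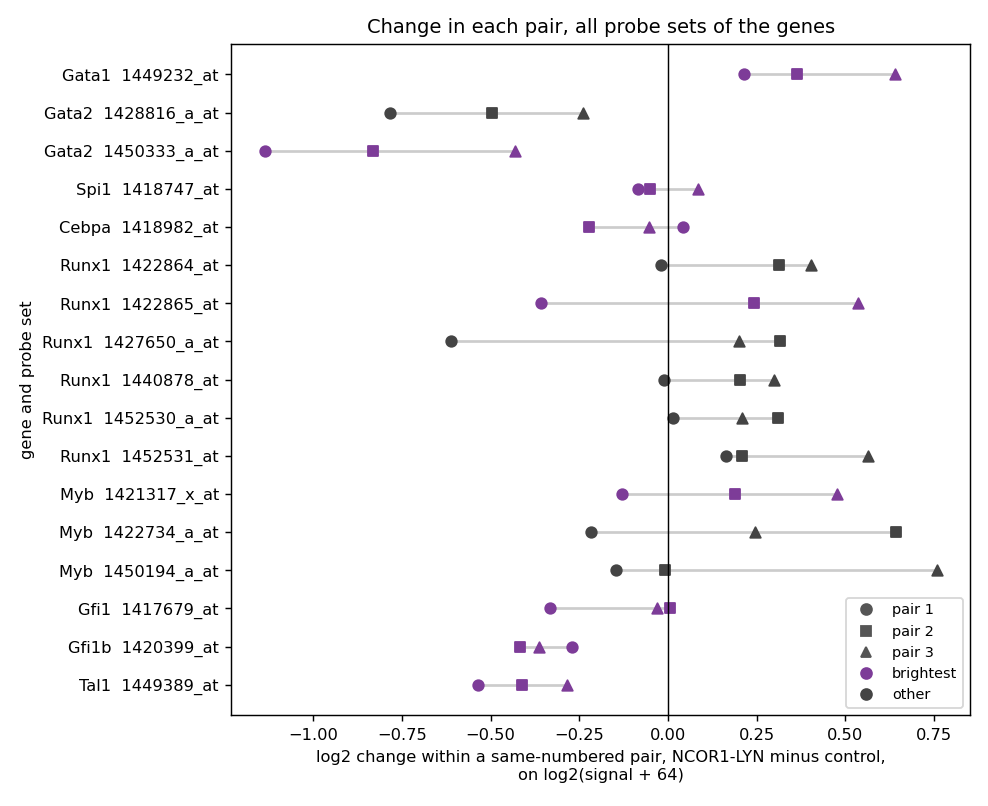
Log2 change within each same-numbered pair of arrays (horizontal axis, NCOR1-LYN minus control, on log2 of signal plus 64) for the 17 probe sets, named on the vertical axis with their gene. Symbols are pairs 1, 2 and 3 and purple marks the brightest probe set of a gene. Both Gata2 probe sets, Gfi1b and Tal1 lie left of 0 in all pairs, and Gata1 lies right of 0.

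Of the myeloid factors on the list, Spi1 and Cebpa were measured, and neither passed. Spi1 (PU.1) had signals of 1528, 1075 and 969.5 in NCOR1-LYN replicates 1, 2 and 3, against 1623, 1115 and 911.6 in control replicates 1, 2 and 3. Arrays of the same number lay close together, and replicate 1 was the highest in both groups. The log2 fold change of Spi1 was −0.02 ± 0.25 (SE), or ± 0.10 with the block, and its limma adjusted p was 0.999 and 0.959. Cebpa, a C/EBP factor needed for granulocyte development, had signals of 8.59, 19.8 and 55.5 with NCOR1-LYN and 6.53, 33.9 and 60.1 in controls. All 6 values lay below 64 and the mean was under the filter, and the signals followed the replicate number. At this brightness neither a difference nor its absence can be shown for Cebpa or Gfi1.

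Runx1, the DNA-binding subunit of core binding factor, was read by 6 probe sets, none of which passed. Its brightest had signals of 951.7, 1023 and 1247 in NCOR1-LYN replicates 1, 2 and 3, against 1237, 854.8 and 840.5 in control replicates 1, 2 and 3. Pair 1 was negative and the others positive (−0.36, 0.24 and 0.54 on the log2 scale), so the fold change of 0.14 ± 0.19 (SE) joined opposite signs, and its adjusted p in limma was 0.999, or 0.80 with the block. Of the 6 probe sets 5 had a positive fold change, from 0.14 to 0.31, and the remaining probe set had −0.03. In pairs 2 and 3 all 6 were higher with NCOR1-LYN, by 0.20 to 0.57, while in pair 1 they ran from −0.61 to 0.16. Pair 1 was set apart here with the values known, and the 6 probe sets read 1 gene on the same arrays. The probe sets differed in how they followed the replicate number. The dimmest Runx1 probe set had 307.8, 149.3 and 179.8 with NCOR1-LYN and 268, 120.5 and 100.8 in controls, highest in replicate 1. Another ran the other way, with 329.7, 624.1 and 614.1 with NCOR1-LYN and 325.6, 490.7 and 522.3 in controls. In all, 2 Runx1 probe sets were higher and 2 lower in replicate 1 of both groups, and 2 were mixed. The dimmest probe set and the one that ran the other way are annotated to the same sequence record. Beyond such records, which transcripts each probe set detects is not given in the sources used here.

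Myb, a factor of immature and dividing progenitors, had 3 probe sets. The brightest, whose suffix _x_at marks probes that can bind other transcripts, had signals of 12343, 10042 and 11428 in NCOR1-LYN replicates 1, 2 and 3. In control replicates 1, 2 and 3 it had 13500, 8802 and 8187. Control replicate 1 was the highest array and the other controls the lowest, so the groups overlapped. The log2 fold change was 0.18 ± 0.20 (SE) with an adjusted p of 0.999 in limma, or 0.653 with the block, and pairwise changes of −0.13, 0.19 and 0.48. The other Myb probe sets had fold changes of 0.22 and 0.20, and pair 1 was negative in all 3 probe sets.

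Several of these genes varied with the replicate number. With the group held in the limma fit, the replicate number term passed at an adjusted p under 0.05 for 3 of the 7, Gfi1b (0.00989), Spi1 (0.0266) and Tal1 (0.0323), while it passed for 13.1% of all genes. Gata2 had 0.0676, Myb 0.146, Gata1 0.279 and Runx1 0.795. Replicate 1 stood above the mean of replicates 2 and 3 in both groups for 6 of the 7, all but Runx1, and for 39.2% of all genes, which is given with no test because replicate 1 was singled out from these data. For Myb this held only in the brightest of its 3 probe sets. In the others replicate 1 was lower with NCOR1-LYN (−0.26 and −0.02) and higher in controls (0.40 and 0.50). The gap for Gfi1b was 0.91 on the log2 scale with NCOR1-LYN and 0.79 in controls. For Gata2 it was 0.36 with NCOR1-LYN and 0.86 in controls.

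With both replicate 1 arrays left out, 6 of the 7 genes passed in limma, where 6.91% of all genes did. Gata1 (0.50 ± 0.08, adjusted p = 0.00365), Runx1 (0.39 ± 0.10, 0.0492) and Myb (0.33 ± 0.08, 0.0282) were higher with NCOR1-LYN on the log2 scale (± SE). Gata2 (−0.63 ± 0.11, adjusted p = 0.0056), Gfi1b (−0.39 ± 0.06, 0.00455) and Tal1 (−0.35 ± 0.06, 0.00983) were lower. Spi1 had 0.02 ± 0.11 (adjusted p = 0.955). That fit rests on 2 arrays a group, close to each other, and on a choice of arrays made with the values known, so it is no separate evidence. Array weights, which counted the replicate 1 arrays at 0.209 (NCOR1-LYN) and 0.161 (control), let 2 of the 7 pass (4.6% of all genes), Gata1 at 0.50 ± 0.08 (adjusted p = 0.0101) and Gata2 at −0.62 ± 0.13 (adjusted p = 0.0241). With 1 array left out in turn, 0 of the 7 passed, and the log2 fold change of Gata2 ran from −0.95 (without control replicate 3) to −0.51 (without control replicate 1), and that of Gata1 from 0.31 to 0.55 with the same arrays out. Tal1 ran from −0.56 and Gfi1b from −0.66 (without NCOR1-LYN replicate 1) to −0.20 and −0.09 (without control replicate 1). Myb ran from 0.04 (without control replicate 3) to 0.40, and Runx1 from 0.03 (without NCOR1-LYN replicate 3) to 0.31, both highest without control replicate 1.

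**Figure D3:**
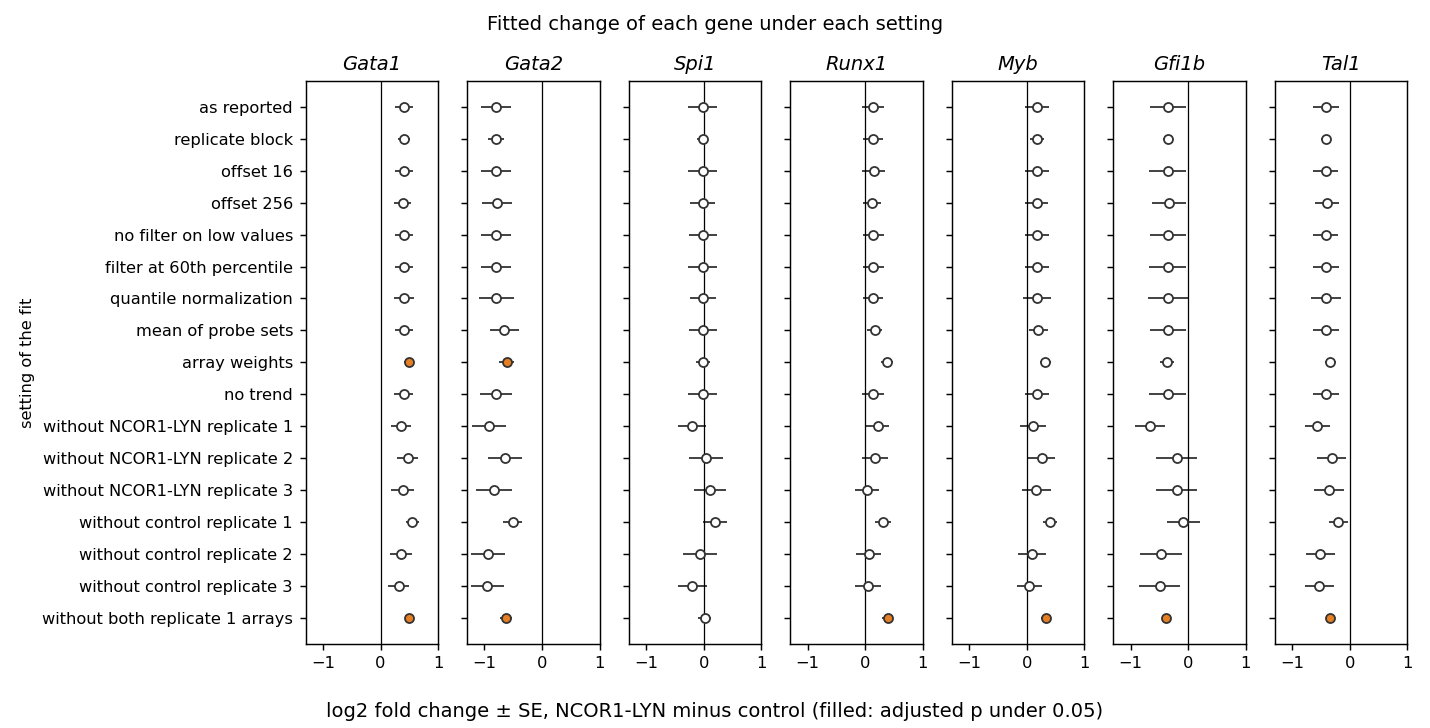
Log2 fold change ± SE of NCOR1-LYN minus control (horizontal axis) for the 7 genes that passed the filter, under each setting of the fit (vertical axis). Filled points had an adjusted p under 0.05, which occurred with array weights (Gata1 and Gata2) and without both replicate 1 arrays (6 of 7 genes).

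By the pattern across the 6 arrays, measured as the root mean square difference of log2 values centred on each gene's mean, the nearest of the 7 to each other were Gata1 and Myb (0.141), and the farthest Gata1 and Gata2 (0.627). Tal1 lay nearest to Gfi1b (0.165), and Gata2 to Tal1 (0.225). Among 6763 other genes spanning at least 0.5 on the log2 scale, the closest to each were Kifc3 (0.102) and Pdzk1ip1 (0.109) for Gata2, and Tmem29 (0.0495) and Antxr1 (0.0558) for Gata1. Slc6a13 (0.0393) and Slc6a6 (0.0413) were closest to Tal1, Snx15 (0.0597) and Ldb1 (0.0683) to Gfi1b, and Ighmbp2 (0.0349) and Pomt1 (0.0395) to Myb. Aamdc (0.0496) and Wdr24 (0.0515) were closest to Runx1, and Slc12a9 (0.0361) and Npc1 (0.038) to Spi1. Ldb1, which encodes the scaffold that joins GATA and TAL1 complexes, had 1106, 529.2 and 513.5 with NCOR1-LYN and 1302, 648.1 and 712.3 in controls. The 6 arrays fall into 2 groups and 3 replicate numbers, and the measure reads both.

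Of the 13 measured partners and cofactors of these factors 0 passed in limma in either fit, and 9 had negative and 4 positive fold changes (median −0.05). At an unadjusted p under 0.05 the counts were 0 without the block, where 4.75% of all genes were, and 4 with it, where 11.3% were. Zfpm1, which encodes the GATA1 cofactor FOG-1, had the largest change, with 4470, 1441 and 1494 with NCOR1-LYN, against 5609, 3107 and 2789 in controls. Like Gata2, Gfi1b and Tal1, it was lower in all pairs (−0.32, −1.08 and −0.87), with a log2 fold change of −0.76 ± 0.46 (SE) and an adjusted p of 0.999, or 0.0963 with the block. Cbfa2t3 (ETO2), a corepressor in TAL1 complexes named because of its values, had within-pair differences of −0.46, −0.56 and −0.56 (adjusted p = 0.999, or 0.066 with the block). Of 19 other haematopoietic transcription factors measured, 0 passed in either fit, with 10 positive and 9 negative. Their unadjusted counts were 1 without and 3 with the block, shares near the 4.75% and 11.3% of all genes. Ikzf1, which encodes the lymphoid factor Ikaros, had the largest change, −0.61 ± 0.56 (SE), with pairwise changes of −0.39, −0.85 and −0.57.

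Genes known to be driven or repressed by the factors had fold changes in both directions. Of 7 measured GATA targets of mast cells, basophils and eosinophils, 0 passed without the block, while with it Epx (eosinophil peroxidase) rose and Cma1 (mast cell chymase) fell. With the block their log2 fold changes were 1.59 ± 0.13 for Epx (SE, adjusted p = 0.00654) and −1.73 ± 0.23 for Cma1 (adjusted p = 0.0281). Without it the SE was 0.96 for Epx and 0.44 for Cma1 (limma adjusted p = 0.999 and 0.534). Epx had 306.3, 1984 and 2119 with NCOR1-LYN against 36.1, 714.3 and 719.6 in controls. Cma1 had 80.5, 5.74 and 52.4 with NCOR1-LYN against 614.7, 189.6 and 186.2 in controls. Cma1 thus passed the filter through its controls, and the size of its fold is not firm. Of 9 measured C/EBP targets of granulocytes, 1 rose in both fits, Ltf (lactoferrin, 2.35 ± 0.19, limma adjusted p = 0.0175, or 0.00613 with the block). Cebpa was at the floor and Cebpe was not read, but other C/EBP genes were above the filter and did not pass in either fit. These were Cebpb (means of 7997 with NCOR1-LYN and 6790 in controls), Cebpg (3742 and 2907) and Cebpd (907 and 889.3). Ltf had 657.4, 502 and 541.3 with NCOR1-LYN, against low control signals of 36.9, 60.4 and 85.1. Over all genes 0.0824% passed without and 0.824% with the block. Of 4 erythroid and megakaryocytic targets 0 passed, with Gp9, a platelet membrane glycoprotein gene, at −0.71 ± 0.21 as the largest change. Of 9 PU.1 targets 0 passed, the largest change being −0.67 ± 0.22 for Cd68, a lysosomal protein gene of macrophages. Of 3 MYB targets 0 passed, and Mpo (myeloperoxidase) had 0.59 ± 0.50. Of 5 genes repressed by GFI1 and GFI1B, all with negative fold changes (median −0.27), Id2 fell in the blocked fit, at −1.10 ± 0.16 (SE) on the log2 scale and an adjusted p of 0.0358. Of the 10916 genes tested, 5768 were negative. The remaining genes of this list did not pass in either fit. Their changes without the block (± SE) were Id1 −0.15 ± 0.33, Cdkn1a −0.30 ± 0.40, Hoxa9 −0.27 ± 0.23 and Csf1 −0.17 ± 0.37. Cdkn1a was lower in every pair (−0.14, −0.45 and −0.31), with an SE of 0.10 and a limma adjusted p of 0.309 in the blocked fit. Id2, an inhibitor of helix-loop-helix factors, had 189.2, 540.9 and 446.7 with NCOR1-LYN against 652.2, 969.3 and 976.6 in controls. At an unadjusted p under 0.05 in limma lay 4.75% of all genes without and 11.3% with the block. The counts without and with it were 2 and 4 of the 7 mast cell, basophil and eosinophil targets. They were 4 and 6 of the 9 C/EBP targets, and 1 and 3 of the 4 erythroid and megakaryocytic targets. For the 9 PU.1 targets they were 2 and 5, and for the 3 MYB targets 1 and 2. Of the 5 genes repressed by GFI1 and GFI1B they were 1 and 2. Lists this short give no firm share, and the counts take both directions. Without the block, the C/EBP count held Mmp9, which was lower (−0.61), beside Ltf, Ngp and Prtn3, which were higher. The count of the mast cell, basophil and eosinophil targets held Fcer1a (2.40) and Cma1 (−1.73). The list medians were 0.36 for the mast cell, basophil and eosinophil targets, 0.59 for C/EBP targets, −0.32 for erythroid and megakaryocytic targets, −0.25 for PU.1 targets and 0.44 for MYB targets, beside −0.01 over all genes.

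**Figure D4:**
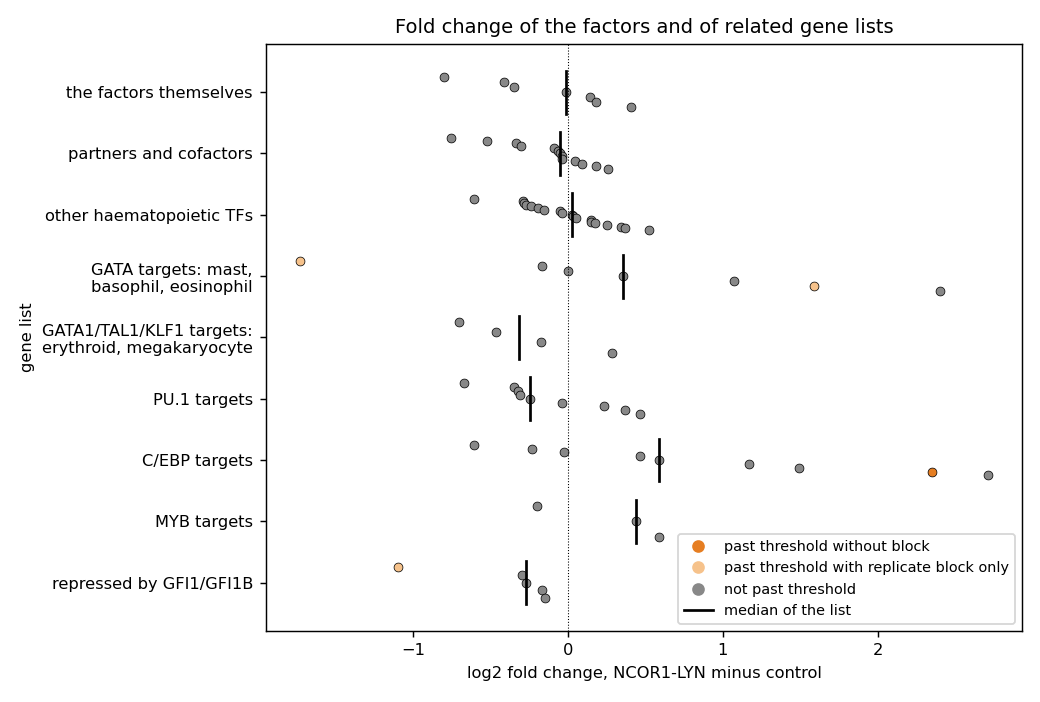
Log2 fold change of NCOR1-LYN minus control (horizontal axis) of the measured genes in each list (vertical axis). Points are genes, vertical bars are list medians, dark orange marks adjusted p under 0.05 without the block and light orange with the block only. The factors themselves hold no orange point, and Ltf, Epx, Cma1 and Id2 carry the colours in the other lists.

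Markers of cell types were read beside the label. All 8 neutrophil markers are also in the list of C/EBP targets above. All 8 mast cell and basophil markers are also in the list of GATA targets, so the same values are read again here. Of 11 B lineage markers with a probe set, 4 passed the filter, and Rag1, Rag2, Ebf1 and Cd79a were among those below it. Cd79b had 436 ± 24.9 in NCOR1-LYN arrays and 471 ± 93 in controls (SD, n = 3 each). Pax5 (means of 63.7 with NCOR1-LYN and 75.7 in controls), Igll1 (82.7 and 64.4) and Cd22 (84.4 and 66.9) were only just above the filter. Signals of the 11 B lineage markers, mostly Cd79b, summed to 743 to 823 with NCOR1-LYN and 759 to 978 in controls. Most of these markers were below the filter, and they do not settle the pro-B label. Sums over different probe sets and numbers of genes cannot be ranked between lists, here or below. Summed neutrophil markers (5 of 8 above the filter) ran from 6804 to 10250 with NCOR1-LYN and from 2060 to 2659 in controls, and mast cell and basophil markers (3 of 8) from 1903 to 4656 with NCOR1-LYN and from 824 to 1891 in controls. The mast cell and basophil sum was mostly Fcer1a, the IgE receptor alpha chain gene, named because of its values, with 1596, 4386 and 3721 with NCOR1-LYN and 975.3, 387.7 and 340.8 in controls (limma adjusted p = 0.26, or 0.0963 with the block). The other markers of that list above the filter, Cma1 and Ms4a2, had negative log2 fold changes (−1.73 and −0.17), and the list's median was −0.17. The neutrophil sum was mostly Ngp and Prtn3, granule protein genes with log2 fold changes of 2.71 and 1.49 that did not pass in either fit (limma adjusted p = 0.417 and 0.61, or 0.0502 and 0.226 with the block). In pair 1 Prtn3 had 1745 with NCOR1-LYN and 1763 in the control. The other neutrophil markers above the filter were Ltf (2.35), Mpo (0.59) and S100a9, which was negative (−0.23). S100a8, below the filter, averaged 18.3 with NCOR1-LYN and 89 in controls. Kit and Cpa3 of the mast cell list were below the filter, as were Elane and Camp of the neutrophil list. Erythroid markers (1 of 4 above the filter, Klf1) summed to 1940 to 3354 with NCOR1-LYN and 1936 to 5458 in controls, and megakaryocyte markers (2 of 3) to 2625 to 5555 with NCOR1-LYN and 4057 to 6739 in controls. The megakaryocyte sum was mostly Itga2b, and Pf4 was below the filter. Monocyte and macrophage markers (3 of 5) summed to 627 to 1305 with NCOR1-LYN and 978 to 1437 in controls. T cell markers summed to 101 to 129 with NCOR1-LYN and 118 to 155 in controls, and fibroblast markers to 63.8 to 128 with NCOR1-LYN and 100.2 to 193 in controls, each with 1 of 5 above the filter. In bulk RNA, fewer cells of a type and less RNA per cell cannot be told apart, and the part of these markers in the values of the transcription factors was not tested.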

How the data were processed

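RNA of 6 Ba/F3 samples was read on Affymetrix Mouse Genome 430 2.0 arrays. The deposited values are linear probe set intensities that the authors made with MAS5, per the submitters' processing notes (version not given in the sources used here), and the values show each array scaled to a mean of 500 after trimming 2% at each end. No detection calls, genome build or depth belong to them, so the number of arrays limits the precision.

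Of 45101 probe sets, 34945 had exactly 1 symbol in the platform annotation, and 0 symbols changed when checked by Entrez identifier. Signals were used as log2(signal + 64). Each gene took its brightest probe set, and genes below the 40th percentile were left out, which left 10916. Groups and replicate numbers came from the sample titles. Genes were fitted with limma 3.58.1 in R 4.3.3 (lmFit, eBayes with a trend, 4 residual degrees of freedom, or 2 with the replicate block), two-sided, with Benjamini-Hochberg adjustment over all genes and a threshold of 0.05. A separate fit took all 34945 probe sets. In simulated data, 36% of 2-fold changes were recovered without the block and 60.4% with it, and 87.2% and 86.6% of 4-fold changes. The fitted changes of the transcription factors were all smaller than 2-fold, so a factor that did not pass is not shown to be unchanged.

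Deviations from group means correlated across genes at 0.617, 0.409 and 0.439 between arrays of replicate number 1, 2 and 3, each over 0.1, and same-numbered arrays were therefore treated as pairs. No shared day is stated, and replicate 2 of NCOR1-LYN correlated at 0.485 with control replicate 3, so the check bears on replicate 1.

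The genes and lists were chosen with earlier results of these data known. Named are all the factors, the 2 genes most like each, and from each list up to 4 genes past the threshold in either fit, or the largest change where none passed. Alternatives changed the block, offset, filter, scaling, probe set rule, trend, weights and arrays. The planned comparison of protein sequences was not run.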

Additional observations from a re-analysis of the deposited data

How the results depend on the processing

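The count of the 7 genes past the threshold was 0 under 14 of 16 alternatives, and was 2 under array weights and 6 after removal of both replicate 1 arrays. Over all genes the count was 9 as reported, 90 with the replicate block, 1 without a filter on dim genes, 1 with the filter at the 60th percentile, 502 under array weights and 754 after removal of both replicate 1 arrays. It ran from 0 to 15 when each array was left out in turn. Directions of Gata1, Gata2, Runx1, Myb, Gfi1b and Tal1 held under all 16 alternatives. The log2 fold change of Spi1 was −0.02 as reported and turned positive without NCOR1-LYN replicate 2 (0.04), NCOR1-LYN replicate 3 (0.11), control replicate 1 (0.20) or both replicate 1 arrays (0.016), with a range of −0.20 to 0.20 over single arrays left out. The replicate block changed no call of the 7 genes. Why the replicate 1 arrays stand apart was not tested. Signals of Cebpa and Gfi1 near the floor limit what can be said of them.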

Other observations

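Among the haematopoietic transcription factors outside the main list, Mecom, Nfil3 and Klf1 are given here as examples picked for their values. Mecom, which encodes the progenitor factor EVI1, had signals of 18000, 15520 and 18470 in NCOR1-LYN replicates 1, 2 and 3, against 12680, 14340 and 13960 in control replicates 1, 2 and 3. Its log2 fold change was 0.34 ± 0.12 (SE), with a limma adjusted p of 0.903, or 0.291 with the replicate block. Nfil3, a basic leucine zipper factor of lymphoid and myeloid cells, had 990.2, 1793 and 1445 with NCOR1-LYN and 715.5, 1101 and 1037 in controls, with each NCOR1-LYN array above the control of its number (adjusted p = 0.999 in limma, or 0.0977 with the block). Klf1, the erythroid factor, had 3276, 1928 and 2365 with NCOR1-LYN and 5388, 2196 and 1893 in controls, so that its pairs went both ways.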
